A study of Saccharomyces cerevisiae with 6 samples.

Results

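Budding yeast makes its small (40S) ribosomal subunit with a set of assembly factors that bind the ribosomal RNA precursor in the nucleolus and accompany it to the cytoplasm, and 41 genes for such factors are described here in the sulfur dioxide-resistant Saccharomyces cerevisiae mutant F3 and in its reference strain. The 41 genes were chosen by name and found through the systematic names in the array files. Each had 1 probe among the 6256 gene probes of the array, and all 41 were well above background on each of the 6 arrays. F3 is a mutant selected by evolutionary engineering for resistance to sulfur dioxide, and the reference is the strain it is compared with in the study; the labels give no genotype for either. Both were grown without a stated sulfite addition and harvested at early exponential phase in minimal medium, as 3 cultures of F3 and 3 of the reference, with 1 one-colour array per culture. The labels also mention overnight growth in rich medium without saying how the steps relate. F3 is a single mutant, so its 3 arrays are cultures of 1 strain and not separate mutants.

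In the nucleolus, RNA polymerase I transcribes a long precursor RNA, and the small subunit processome, a large particle built around the U3 small nucleolar RNA, assembles on it, folds it and prepares the cuts that release the 40S precursor. Part of the factors then leave, and a smaller group stays bound or joins until the last steps in the cytoplasm, where kinases and GTPase-like factors control the final check before the subunit can start translation. In yeast these genes belong to the ribosome biogenesis regulon, whose transcripts are known to be abundant in fast growth and to drop in many stresses. The levels given below are log2 signal minus the 75th percentile of the array in question: a level of 0 equals this percentile, and "fell" means lower in F3 relative to it. Levels of different genes come from different probes and are not compared with each other.

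The 75th percentile itself ranged, in intensity units, between 8314 and 9534 for F3 and between 2791 and 4973 for the reference. Per array, 93.6% to 95.3% of the gene probes were well above background. All F3 arrays were on 1 slide, scanned on another day than the 2 slides of the reference, so strain, slide and scan day cannot be told apart. Software marks for a poor spot grid and for a negative control level outside its range were set for all 3 F3 arrays and for none of the reference; the part of these marks in the results was not tested. Of the markers of mating type a, 4 of 4 were well above background on all arrays of both strains, with a summed signal of 2.12 to 2.18 times the 75th percentile in F3 and 4.99 to 5.44 times in the reference. The alpha-specific markers summed to 0.0637 to 0.0672 times the percentile in F3 and 0.0436 to 0.0502 times in the reference, with MF(ALPHA)2 well above background on 0 of 3 F3 arrays and on 1 of 3 reference arrays. Meiosis markers summed to 0.110 to 0.116 times in F3 and 0.115 to 0.144 times in the reference, and the stationary phase markers SNZ1 and SPG4 to 0.425 to 0.698 times in F3 and 0.558 to 0.587 times in the reference. Of the 12 markers, 11 were tested, 6 were lower in F3, 3 were higher and 2 were not called, where 38.2% of all tested genes were lower and 41.5% higher. SPG4 rose by 5.41 while SNZ1 fell by 1.11, although with spike-in scaling the direction of SNZ1 turned and its value lay 0.60 higher in F3. That scaling adds the same shift to each gene. Among the markers called lower, the direction of MFA1 (−1.33), MFA2 (−0.43) and MF(ALPHA)1 (−1.40) turned too. STE2 (−2.13) and SPS1 (−2.06) stayed below 0. Among the 41 genes, falls of that size (RIO1 at −2.13 and UTP10 at −2.09) were not called with spike-in scaling. The part of such differences in the results below was not tested.

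All 41 genes fell in F3 by limma at an adjusted p under 0.05, and none rose, where 38.2% of the 5948 tested genes were called lower and 41.5% higher (79.7% in either direction). All 41 were also at least 2-fold lower, where 16.2% of the tested genes were. Scaled to spike-in controls instead, 27 of the 41 were called lower and 3 lay above 0 without a call (RRP3, UTP20 and UTP22), as described further on. In RNA from a whole culture, fewer growing cells and less of a transcript per cell cannot be told apart. The F3 and reference arrays did not overlap for any of the 41, where 39.5% of the tested genes were lower without overlap. The median log2 difference (F3 minus reference) over the 41 genes was −2.47, with a range of −5.41 to −1.22, against a median of 0.05 over all tested genes. The adjusted p-values lay between 1.3e-08 and 5.0e-06, and the SEs of the differences between 0.08 and 0.20. Ordered from the largest fall in the genome, the 41 genes ranked between 8 and 753 of 5948, and 38 of them lay in the lowest 10%. Falls of more than 3 log2 units were seen for 8 genes, of 2 to 3 for 29, and of less than 2 for 4. These genes were chosen with earlier results of the same arrays known, so the counts describe the list and are not independent support for its direction.

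**Figure D1:**
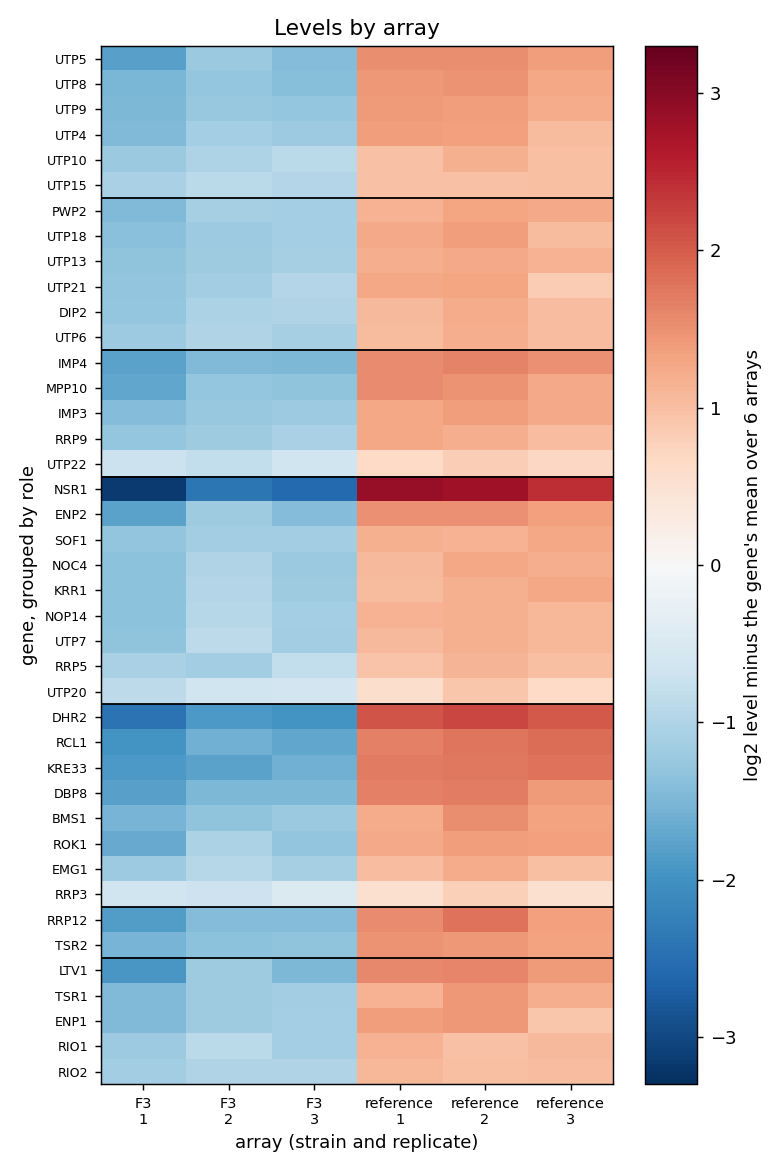
Heat map of the log2 level of the 41 genes (rows, grouped by role and ordered by difference) on the 3 F3 arrays and the 3 reference arrays (columns), each gene centred on its mean over the 6 arrays (colour scale in log2 units). Every gene is below its mean on the F3 arrays and above it on the reference arrays when arrays are scaled to their 75th percentile, with the strongest contrast for NSR1 and the weakest for RRP3.

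The array medians over the 41 genes were −1.96, −1.76 and −1.85 on the F3 arrays, against 0.57, 0.73 and 0.49 on the reference arrays. Within F3 the genes moved together: array 1 held the lowest of the 3 values for 38 of the 41 genes (92.7%), whereas it held the lowest value for 37.5% of all tested genes. The median SD between F3 arrays was 0.16 for the 41 genes and 0.09 for all tested genes, and between reference arrays it was 0.10 for the 41 genes and 0.11 for all. The heat map of levels by array shows this shared offset as a darker first column. The differences of the 41 genes are therefore not independent measurements of each other.

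UtpA is the complex that binds first to the leader of the growing precursor and includes proteins linked to transcription of the ribosomal DNA, and its 6 genes fell by a median of 2.59. UTP5 fell most among them, with levels of −1.93, −1.38 and −1.59 on the F3 arrays, against 1.39, 1.39 and 1.23 on the reference arrays, a difference of −2.97 ± 0.14 (SE, adjusted p = 1.7e-07), or 7.84-fold lower. UTP15 fell least, with levels of −1.25, −1.07 and −1.14 on the F3 arrays, against 0.78, 0.79 and 0.81 on the reference arrays and a difference of −1.95 ± 0.08. The highest F3 value of either gene lay well below its lowest reference value. UTP10, the largest protein of the complex, had levels of −0.87, −0.65 and −0.52 on the F3 arrays, against 1.34, 1.54 and 1.34 on the reference arrays, a difference of −2.09 ± 0.11. UTP8 (−2.80 ± 0.09), UTP9 (−2.67 ± 0.09) and UTP4 (−2.52 ± 0.12) lay between these, and the 3 F3 arrays were the lowest for each.

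UtpB, the next complex to arrive, has 6 genes here with the narrowest range of any role, between −2.47 and −2.18. Its members are mostly proteins with WD repeats, a propeller fold that joins partners. PWP2 had levels of −2.47, −2.11 and −2.13 on the F3 arrays, against 0.14, 0.30 and 0.25 on the reference arrays, a difference of −2.47 ± 0.11 (SE, adjusted p = 1.5e-07). UTP6, at the other end of the range, had levels of −1.67, −1.46 and −1.56 on the F3 arrays, against 0.57, 0.71 and 0.54 on the reference arrays, a difference of −2.18 ± 0.09. The strains were far apart for both genes. UTP21 had levels of −1.73, −1.57 and −1.39 on the F3 arrays, against 0.85, 0.87 and 0.43 on the reference arrays, a difference of −2.28 ± 0.14, with reference array 3 lower than the other two. DIP2 had levels of −1.29, −1.06 and −1.02 on the F3 arrays, against 1.05, 1.22 and 0.99 on the reference arrays, a difference of −2.21 ± 0.10. The remaining members UTP18 and UTP13 differed by −2.45 ± 0.11 and −2.40 ± 0.09.

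RRP9 encodes the protein that marks the U3 particle, and MPP10, IMP3 and IMP4 encode a complex that helps U3 pair with the precursor. IMP4 fell most of these, with levels of −2.40, −2.10 and −2.12 on the F3 arrays, against 0.93, 0.99 and 0.89 on the reference arrays, a difference of −3.14 ± 0.10 (SE, adjusted p = 2.6e-08), or 8.82-fold lower. MPP10 differed by −2.87 ± 0.13, IMP3 by −2.60 ± 0.09 and RRP9 by −2.34 ± 0.10, and the strains did not overlap for any of them. UTP22, the member of the UtpC complex in the list, fell less, with levels of −0.90, −1.005 and −0.85 on the F3 arrays, against 0.46, 0.60 and 0.49 on the reference arrays and a difference of −1.43 ± 0.08, or 0.28 and not called with spike-in scaling. Its partner RRP7, which is not among the 41, differed by −0.75 ± 0.08 (SE, adjusted p = 1.9e-05). Of the casein kinase subunits that yeast UtpC shares with many other processes, CKA2 fell by 0.67 while CKA1 (−0.15, adjusted p = 0.102), CKB1 (0.03, adjusted p = 0.748) and CKB2 (−0.07, adjusted p = 0.381) were not called. With spike-in scaling the direction turned for RRP7 and CKA2, which were then called higher in F3, by 0.96 (limma adjusted p = 0.0015) and 1.04 (limma adjusted p = 0.00058). Both values lie below the median of all tested genes under that scaling, 1.76, where 85.6% of tested genes were called higher. The p-values with that scaling may be too small, as described further on.

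**Figure D2:**
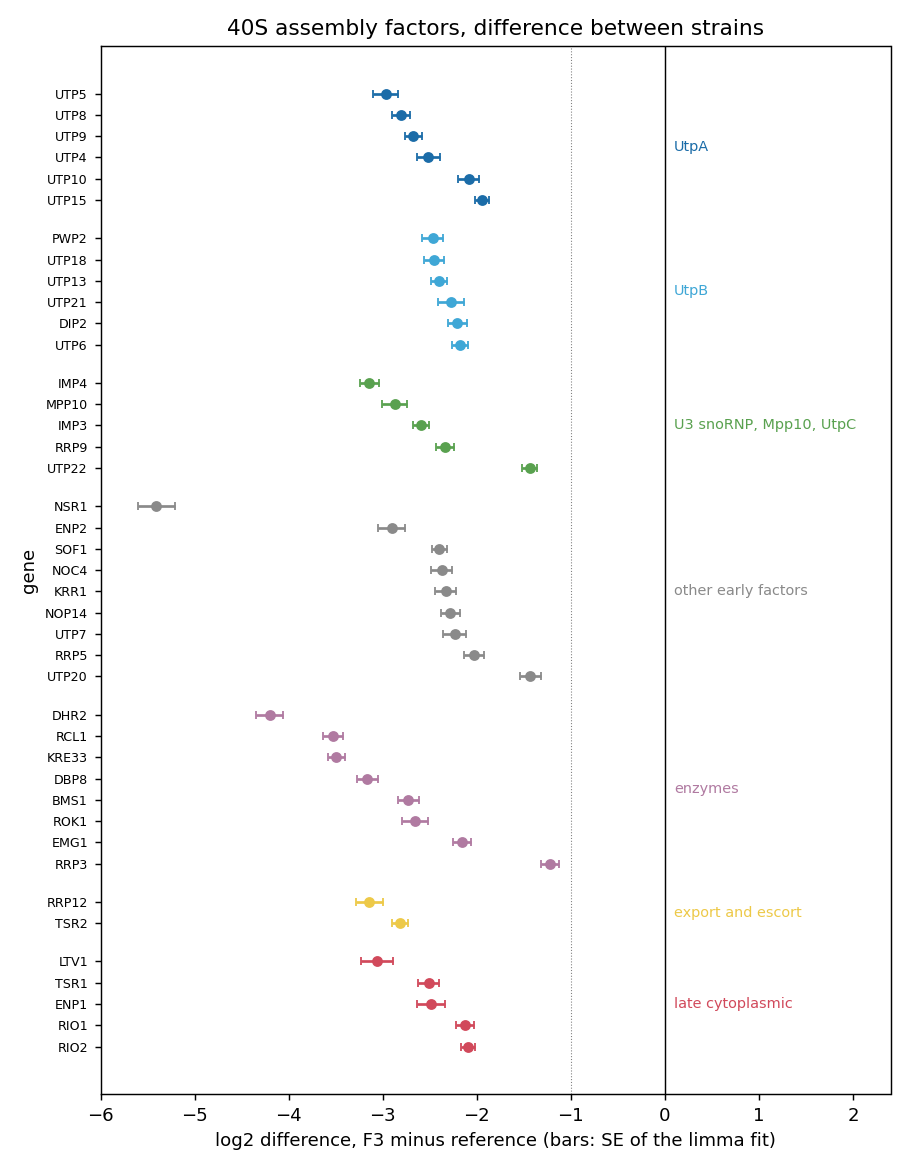
Log2 difference between strains (F3 minus reference, horizontal axis) for the 41 genes, grouped by role, with arrays scaled to their 75th percentile and bars for the SE of the limma fit; the dotted line marks a 2-fold fall. All points lie left of that line, with NSR1 at −5.41 and DHR2 at −4.20 farthest from 0 and RRP3 at −1.22 nearest.

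NSR1, the yeast counterpart of nucleolin, a nucleolar RNA-binding protein, had the largest fall of the 41. Its levels were −1.53, −0.76 and −0.95 on the F3 arrays, against 4.51, 4.42 and 4.06 on the reference arrays, a difference of −5.41 ± 0.20 (SE, adjusted p = 5.4e-08), or 42.5-fold lower in F3. It lay below the 75th percentile on each F3 array and above it on each reference array, and it ranked 8 of the 5948 tested genes from the largest fall. The reading frame YGR160W, which overlaps NSR1 on the opposite strand, reached the level called well above background on 0 of the 3 F3 arrays and on 3 of the 3 reference arrays. It was lower in F3 by at least 14.1-fold, with the F3 level bounded as described under the processing. It passed the filter for testing only through its reference arrays, so no p-value is given. Because of the overlap its signal is uncertain.

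The other early factors fell by between 2.91 and 1.43. ENP2, a WD-repeat protein of the processome, differed by −2.91 ± 0.14, and SOF1, which also carries WD repeats, by −2.40 ± 0.08. NOC4 and NOP14 encode partners that bind each other: NOC4 differed by −2.37 ± 0.11 and NOP14 by −2.28 ± 0.11, so the 2 differences lie within their SEs of each other. The levels of NOP14 were −2.87, −2.47 and −2.64 on the F3 arrays, against −0.38, −0.34 and −0.41 on the reference arrays. KRR1, an RNA-binding protein of the early particle, differed by −2.33 ± 0.11. UTP7, another WD-repeat protein, had levels of −1.65, −1.18 and −1.47 on the F3 arrays, against 0.76, 0.87 and 0.78 on the reference arrays, a difference of −2.24 ± 0.12. RRP5, a large RNA-binding protein needed for both ribosomal subunits, had levels of −0.71, −0.79 and −0.45 on the F3 arrays, against 1.31, 1.48 and 1.35 on the reference arrays, a difference of −2.03 ± 0.10. F3 array 2 was the lowest for RRP5, unlike for most of the 41. UTP20, a very large scaffold protein, fell least of this role, with levels of −0.73, −0.51 and −0.48 on the F3 arrays, against 0.71, 1.06 and 0.79 on the reference arrays and a difference of −1.43 ± 0.11 (SE, adjusted p = 4.2e-06), or 0.28 and not called with spike-in scaling.

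The enzymes of the particle held both the second-largest and the smallest fall of all 41. DHR2, a DEAH-box RNA helicase, had levels of −4.43, −3.87 and −3.96 on the F3 arrays, against 0.08, 0.23 and 0.04 on the reference arrays, a difference of −4.20 ± 0.14 (SE, adjusted p = 3.9e-08), or 18.4-fold lower. RRP3, a DEAD-box helicase, had levels of −0.71, −0.71 and −0.52 on the F3 arrays, against 0.49, 0.74 and 0.49 on the reference arrays, a difference of −1.22 ± 0.10 (SE, adjusted p = 5.0e-06), or 2.33-fold lower, against 0.49 and no call with spike-in scaling. Even for RRP3 the strains were apart by 1.01, the smallest gap between the lowest reference array and the highest F3 array of any of the 41. DBP8, a further DEAD-box helicase, had levels of −2.26, −1.94 and −1.97 on the F3 arrays, against 1.18, 1.21 and 0.94 on the reference arrays, a difference of −3.16 ± 0.11. ROK1, the helicase that releases a guide RNA from the precursor, differed by −2.66 ± 0.14. Among the 4 helicases the differences thus ran between −4.20 and −1.22, a span many times their SEs.

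BMS1 encodes a GTPase and RCL1 the cyclase-like protein that it carries into the particle. RCL1 had levels of −3.92, −3.53 and −3.67 on the F3 arrays, against −0.28, −0.17 and −0.10 on the reference arrays, a difference of −3.53 ± 0.11, and BMS1 differed by −2.73 ± 0.11. Of this pair RCL1 therefore had the larger fall. KRE33 acetylates the RNA of the small subunit, and its levels were −3.19, −3.08 and −2.89 on the F3 arrays, against 0.41, 0.42 and 0.49 on the reference arrays, a difference of −3.49 ± 0.09 (SE, adjusted p = 1.3e-08, the smallest of the 41). EMG1, a methyltransferase for the same RNA, had levels of −1.32, −1.07 and −1.22 on the F3 arrays, against 0.89, 1.10 and 0.88 on the reference arrays, a difference of −2.16 ± 0.10.

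A pair of members act between the nucleolus and the cytoplasm. RRP12, a factor needed for export of the precursor, had levels of −1.07, −0.65 and −0.66 on the F3 arrays, against 2.35, 2.58 and 2.12 on the reference arrays, a difference of −3.14 ± 0.15 (SE, adjusted p = 2.0e-07). TSR2 escorts a small subunit protein to the precursor, and it had levels of −2.24, −2.06 and −2.05 on the F3 arrays, against 0.77, 0.73 and 0.61 on the reference arrays, a difference of −2.82 ± 0.09. Both fell by more than the median of the list.

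The factors that act late, in the cytoplasm, fell as the early ones did. LTV1, which must leave the subunit before its beak can mature, had levels of −2.97, −2.22 and −2.51 on the F3 arrays, against 0.55, 0.58 and 0.36 on the reference arrays, a difference of −3.06 ± 0.17 (SE, adjusted p = 5.4e-07). Its F3 arrays were more spread than those of most of the 41, with an SD of 0.38, and array 1 was the lowest. TSR1, a GTPase-like protein that sits on the interface of the subunit, had levels of −2.06, −1.78 and −1.78 on the F3 arrays, against 0.53, 0.81 and 0.58 on the reference arrays, a difference of −2.51 ± 0.11. ENP1 joins in the nucleolus already and stays on the particle into the cytoplasm, and it had levels of −2.32, −2.05 and −1.99 on the F3 arrays, against 0.50, 0.55 and 0.05 on the reference arrays, a difference of −2.49 ± 0.15. For ENP1 reference array 3 stood below the other reference arrays but above all F3 arrays. RIO1, an atypical kinase of the last steps, had levels of −1.93, −1.64 and −1.85 on the F3 arrays, against 0.39, 0.23 and 0.34 on the reference arrays, a difference of −2.13 ± 0.10. RIO2, its relative, had levels of −2.40, −2.26 and −2.27 on the F3 arrays, against −0.17, −0.26 and −0.24 on the reference arrays, a difference of −2.09 ± 0.08. These kinases had the smallest falls of the 5 late factors, and their difference from each other is smaller than either SE.

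Set side by side, the 5 late factors had a median difference of −2.49 and the 34 early nucleolar factors one of −2.43, so that late minus early was −0.06. By means the sign turned: −2.46 for late and −2.59 for early factors, with late minus early at 0.13 and an SD over genes of 0.39 among the late and 0.78 among the early factors. The difference of medians also turned positive, to 0.13, when ENP1 was counted as early, to 0.014 without reference array 1, and to 0.0074 without reference array 2. The late factors lay inside the range of the early ones: 6 early factors fell by more than every late factor, 6 fell by less than every late factor, and 22 lay between the late extremes. RRP12 and TSR2 were in neither class. The contrast is given as a description with no test.

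Size and calls depended on how the arrays were scaled. When arrays were scaled to 7 spike-in control RNAs, which are added in known amounts, the median of all tested genes moved to 1.76, and the median of the 41 genes was −0.76. The spike-ins lay 1.30 ± 0.0084 log2 units below the 75th percentile in F3 and 0.41 ± 0.46 above it in the reference (SD, n = 3 each), and the values of the 3 reference arrays were 0.23, 0.06 and 0.94. Under this scaling 27 of the 41 genes were called lower and none higher by limma, where 4.29% of tested genes were lower and 85.6% higher. The SE was 0.2958 for each of the 41 genes. The spread of the spike-ins between reference arrays enters every gene alike, and the fit gave all 41 the same variance. The fit treats this shared spread as separate for each gene. The calls with spike-in scaling therefore depend on each other. The shift itself rests on 3 arrays per strain, which a variance common to all 41 genes does not reflect. For both reasons the adjusted p-values with spike-in scaling may be too small. Another 11 were below 0 without being called, and 3 were above 0 without being called: RRP3 at 0.49 ± 0.30, UTP20 at 0.28 ± 0.30 and UTP22 at 0.28 ± 0.30 (SE). At least 2-fold lower under both scalings were 14 of the 41, with NSR1 at −3.70, DHR2 at −2.49, RCL1 at −1.82 and KRE33 at −1.79 with spike-ins.

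The 11 that lost their call while staying below 0 were RRP5, UTP7, NOP14, EMG1, RIO1, RIO2, UTP10, UTP15, UTP6, UTP21 and DIP2, at values between −0.57 and −0.24. Both kinases of the late group are among them, while LTV1 (−1.35), TSR1 (−0.80) and ENP1 (−0.78) kept their call. Relative to the shifted median of all genes each of the 41 was still lower, since the scaling moves every gene by the same amount. The plot of both scalings shows the 2 sets of points in the same order.

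**Figure D3:**
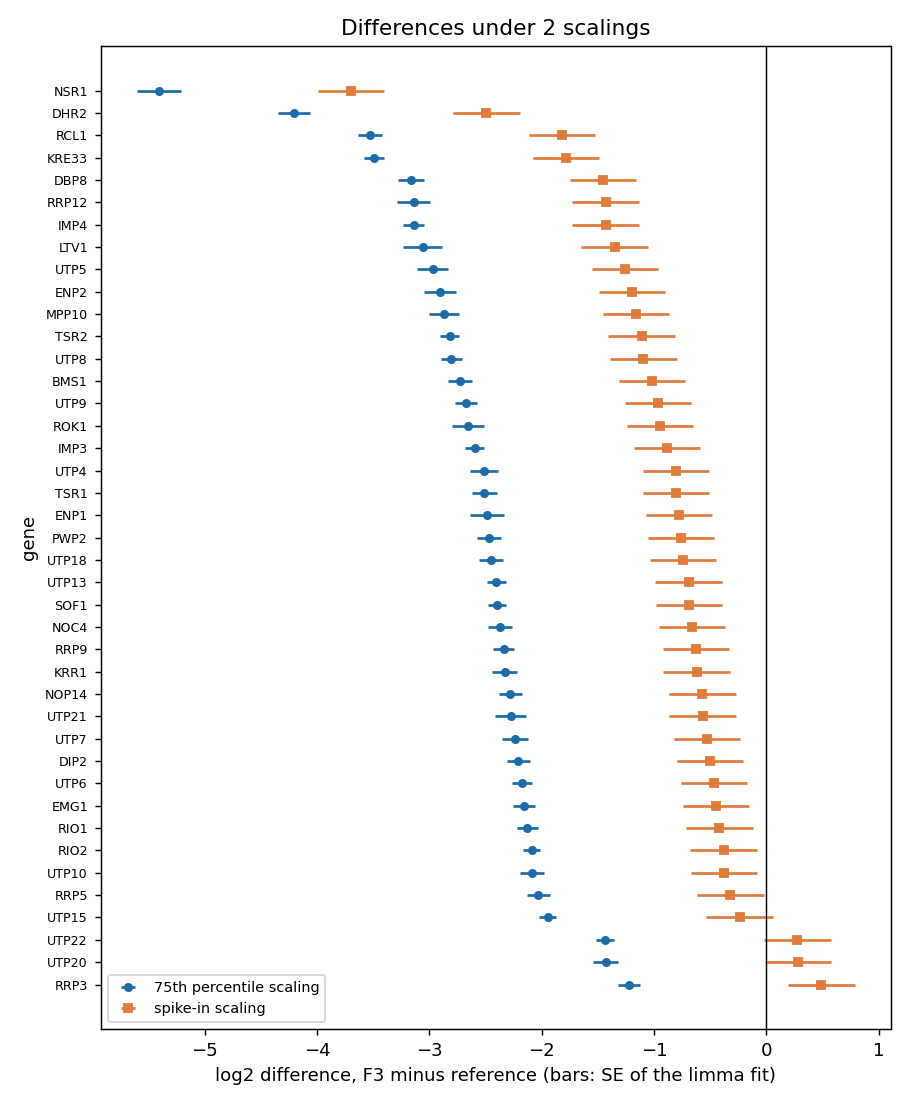
Log2 difference between strains (F3 minus reference) for the 41 genes, ordered by size, with arrays scaled to their 75th percentile (circles) and to the spike-in controls (squares); bars are the SE of the limma fit. With the 75th percentile all genes lie between −5.41 and −1.22, and with spike-ins between −3.70 and 0.49.

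Most other genes of 40S assembly were lower in F3 as well. Of 53 other 40S assembly genes tested, 49 were lower in F3, none was higher and 4 were not called, with a median of −2.36 and 43 at least 2-fold lower. Of all tested genes 38.2% were lower and 16.2% at least 2-fold lower. UTP23, a processome protein, had the largest fall (−4.11 ± 0.11 SE), followed by RRP8, an RNA methyltransferase (−3.37 ± 0.10), and PNO1, the partner of the enzyme that makes the last cut (−3.28 ± 0.18). The fourth gene not called, beside the 3 casein kinase subunits given above, was HRR25, a kinase that acts on LTV1 and ENP1 but also in many other pathways (−0.17, adjusted p = 0.131). With spike-in scaling 27 of the 53 were lower, 11 higher and 15 not called, where 4.29% of all tested genes were lower and 85.6% higher.

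Genes for assembly of the large (60S) subunit fell too: 66 of 66 tested were lower, with a median of −2.79 and 65 at least 2-fold lower. The shares over all tested genes, here and for the ribosomal proteins below, were 38.2% lower and 16.2% at least 2-fold lower. SDA1 (−5.57 ± 0.14 SE), ALB1 (−4.48 ± 0.13) and RLP24 (−4.17 ± 0.12) fell most, and MDN1, a giant ATPase listed as REA1 in RefSeq, fell least (−0.41 ± 0.11, adjusted p = 0.0102), with a value of 1.30 under spike-in scaling. JIP5 and NOP16 were next, at −1.13 and −1.68 (0.58 and 0.03 with spike-ins). The protein components of the small subunit itself differed by less than its assembly factors did: of 57 small subunit ribosomal protein genes 52 were lower and 5 not called, with a median of −0.94 and 26 at least 2-fold lower. Many of these have near-identical copies whose probes may not separate them. With spike-in scaling 48 of the 66 large subunit genes were lower and 1 higher, while of the 57 ribosomal protein genes none was lower and 35 were higher. Of all tested genes 4.29% were then lower and 85.6% higher. Their median was 1.76, against 0.77 for the ribosomal protein genes. The difference between the lists was not tested. The plot of cumulative shares shows the curves of the assembly lists lying together, to the left of the ribosomal protein curve.

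**Figure D4:**
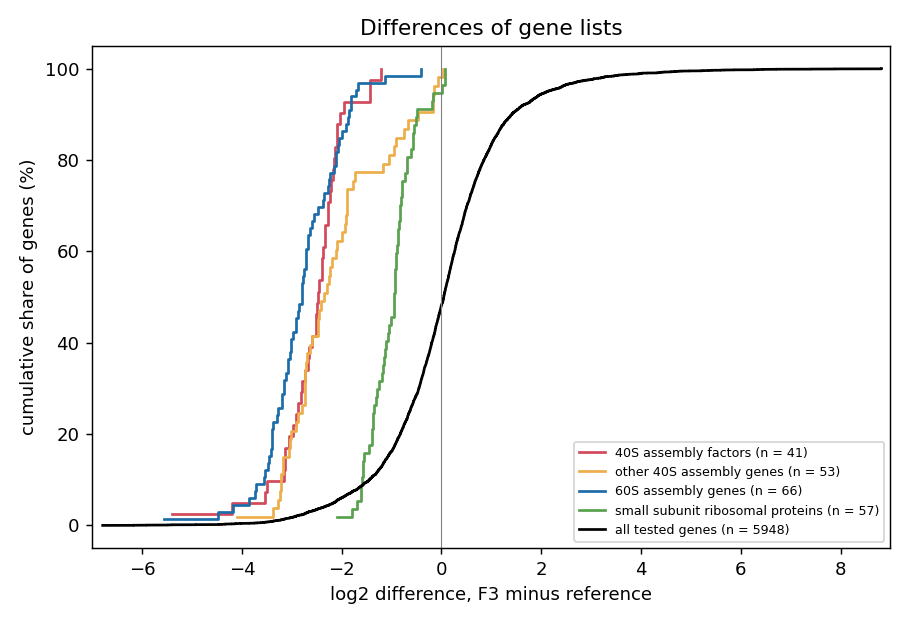
Cumulative share of genes (vertical axis, percent) against log2 difference (F3 minus reference, horizontal axis) for the 41 genes, 53 other 40S assembly genes, 66 genes for 60S assembly, 57 small subunit ribosomal protein genes and 5948 tested genes. The medians are −2.47, −2.36, −2.79, −0.94 and 0.05 in that order.

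Neighbouring genes were compared pair by pair. By the RefSeq gene order of the R64 assembly, 18 of the 41 genes lie head to head with a protein-coding gene on the opposite strand, so that both are transcribed outward from one intergenic stretch. Of the 18 divergent partners 9 were lower in F3, 4 higher and 5 not called, with a median of −0.21, where 38.2% of all tested genes were lower and 41.5% higher. The 18 assembly genes themselves had a median of −2.51. With spike-in scaling 17 of the 18 partners lay above 0, all but SSF1. Under that scaling 85.6% of all tested genes were called higher and their median was 1.76. In 17 of the 18 pairs the assembly gene had the lower value, and the exception was RRP3 (−1.22), whose partner SSF1, a 60S assembly gene with a close paralog, fell by 2.91. Across the 14 partners that belong to none of the lists, 5 were lower, 4 higher and 5 not called, with a median of −0.14.

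RIO1 and GCY1 gave the widest contrast of the 18 pairs. GCY1, a glycerol dehydrogenase, rose by 3.56 (SE 0.08, adjusted p = 7.1e-09), whereas RIO1 on the other side of the same stretch fell by 2.13. FYV6 rose by 0.84 beside KRE33, which fell by 3.49. Of the 18 pairs, 3 join an assembly gene to a gene for a small subunit protein: UTP6 with RPS18A (−1.45), TSR1 with RPS29B (−0.78) and RRP5 with RPS10B (−0.56). LTV1 is paired with RPC25, a subunit of RNA polymerase III, which fell by 1.27. In the last 4 pairs the partner moved in the same direction as the assembly gene, by less. With spike-in scaling the 4 partners lay above 0, between 0.26 and 1.15, but below the median of all tested genes, 1.76. The ribosomal protein genes named here have near-identical copies, so their values are uncertain as to the copy.

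**Figure D5:**
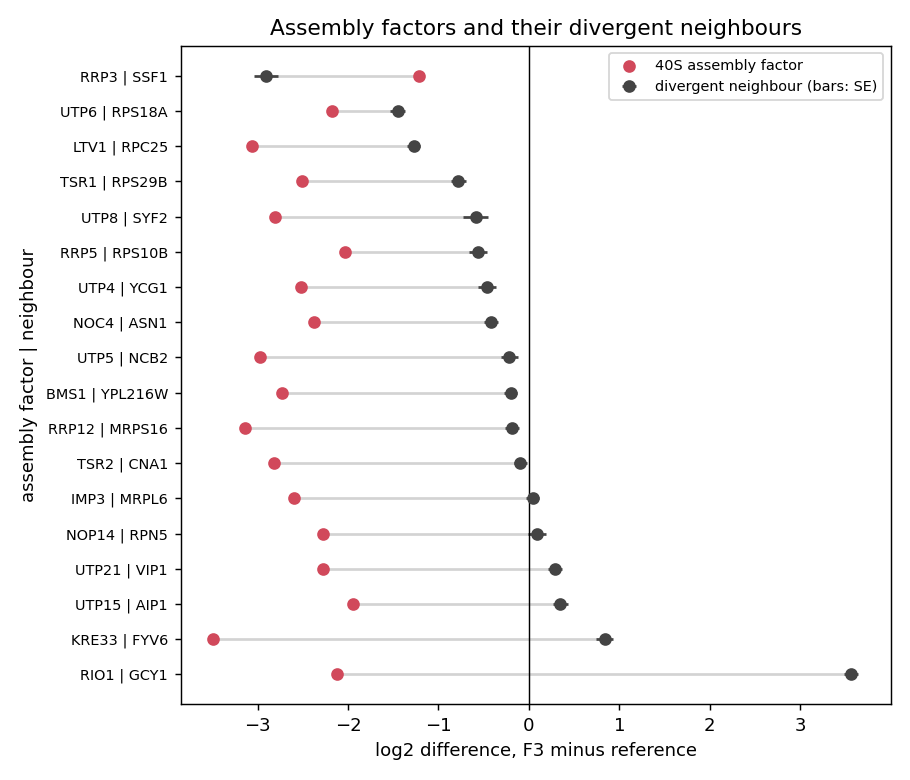
Log2 difference (F3 minus reference, horizontal axis) of the 18 assembly genes that have a divergent neighbour (red) and of that neighbour (dark, bars are SE), one pair per row, ordered by the neighbour. The assembly gene lies left of its neighbour in every row but that of RRP3 and SSF1, and GCY1 lies farthest right at 3.56.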

How the data were processed

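Transcript levels of F3 and the reference strain were measured on 6 one-colour Agilent arrays of 1 design, 3 per strain, grouped by the sample titles. Per the file headers, the authors used Agilent Feature Extraction 10.7.3.1 (9.1 in the submitters' processing notes), and the deposited processed signal is an intensity corrected for background and spatial trend array by array, with no scaling between arrays. The authors' deposited value table holds log2 values centred on each probe, whose scaling between arrays is unknown. Set against scanner values centred in the same manner it correlated with r of 0.988 to 0.993 and had slopes of 0.972 to 0.992, so its direction is that of the scanner values. Its column medians lay between 0 and 0.011 in F3 and between −0.0141 and −0.00551 in the reference. The software's flag for a spot well above background was used as deposited.

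Each probe was taken as the mean log2 processed signal of its 2 spots, minus the 75th percentile over the gene probes of that array. No gene spot was saturated or marked as an outlier. The 5948 genes well above background on at least 3 arrays were fitted with lmFit and eBayes of limma 3.58.1 under R 4.3.3. Tests were two-sided, with p-values adjusted by Benjamini-Hochberg over all of these genes and a threshold of 0.05, and a second count required a difference of at least 2-fold. The fit was tested on simulated data first. Errors with ± are the SE of the fit unless stated, and the number of arrays limits the precision. Replicates are separate cultures by the series design. Where 1 strain had no array well above background for a gene, the fold was bounded by the higher of its own value and the lowest value well above background. Names and gene order come from the RefSeq table of the R64 assembly: 5756 names on the array matched a locus tag and 23 a synonym, and the other 477 were used as printed in the files. The build behind the array's probes was not compared with it, so no coordinates are given.

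The 41 genes, the role lists and the comparison lists were chosen with earlier results of these data known. Levels array by array are given for the largest and smallest difference in each role, the late factors, the 8 largest differences and genes that lost a call under an alternative; from the other assembly lists the 3 largest and 3 smallest differences were named, with genes sharing a promoter region or overlapping a member. Beyond this rule CKA2, RRP7 and HRR25 were picked after their values were seen. Replicate numbers do not pair the arrays: the deviations of same-numbered arrays correlated with −0.15, 0.08 and −0.25. Alternatives were spike-in, quantile and median scaling, normexp background correction, the authors' values, no filter on dim probes, each array left out, a replicate block, the slide as a random block and other class borders. No sequences are shown, and a planned count of promoter motifs was not made, because no sequence table was used here.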

Additional observations from a re-analysis of the deposited data

How the results depend on the processing

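All 41 genes stayed lower and at least 2-fold lower in F3, with none higher, under 13 of the 14 alternatives run for each gene: quantile and median scaling, normexp, the authors' values, no filter on dim probes, each of the 6 arrays left out, a replicate block and the slide as a random block. The exception was spike-in scaling, with 27 genes lower, 14 of them at least 2-fold, a median of −0.76, and values above 0 for UTP22 (0.28), UTP20 (0.28) and RRP3 (0.49), none called. It also gave 27 of the other 40S assembly genes lower, and 255 lower and 5090 higher over all tested genes against 2275 and 2467 (95.2% against 52.0% of calls higher); the scaling adds the same shift to each gene. With the replicate block the median was −2.47 and all 41 calls held; it changed no count of calls by over 1.5 times, and same-numbered arrays did not deviate together. The late minus early difference of medians was −0.11 with normexp, 0.13 with ENP1 counted as early, −0.085 with RRP12 and TSR2 counted as late, and between −0.096 and 0.014 with each array left out; the cause was not tested. The 13 alternatives other than spike-in scaling left the median of all tested genes between −0.07 and 0.05, near that of the main scaling. They are therefore not separate checks of the scaling. The slide block cannot separate slide from strain, since all F3 arrays were on 1 slide. Spots of the 41 genes were at least 16.2 times their local background.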

Other observations

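The other 23 of the 41 genes have their nearest upstream protein-coding gene on the same strand, and 21 of those neighbours were tested. Of the 21, 8 were lower in F3, 9 higher and 4 not called, with a median log2 difference of 0.10, where 38.2% of all tested genes were lower and 41.5% higher. These shares are near those of all tested genes, so the counts show nothing particular to the neighbours. The neighbours named here were chosen after their values were seen. RTS3, which lies upstream of NSR1, rose by 3.95 (SE 0.12, adjusted p = 2.5e-08), while NSR1 fell by 5.41. THI4, a gene for thiamine synthesis upstream of ENP2, rose by 1.72 (SE 0.12, adjusted p = 2.3e-06), whereas ENP2 fell by 2.91. IFH1, a coactivator of ribosomal protein genes that lies upstream of UTP13, fell by 1.24 (SE 0.09, adjusted p = 2.4e-06) and was at 0.47 with spike-in scaling, without being called there (adjusted p = 0.124).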
